A study of Mus musculus with 13 samples.

Results

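The 10 chemokine genes Ccl25, Ccl28, Ccl6, Ccl9, Ccl20, Ccl5, Cxcl16, Cx3cl1, Cxcl1 and Cxcl5 were followed through every group of an RNA sequencing study of Apc loss in the mouse small intestine. They were chosen by name as chemokines that gut epithelium can make, and all 10 were found among the 24054 genes counted. Apc is the tumour suppressor that holds Wnt signalling in check, and the study set its loss in the secretory lineage beside its loss in stem cells, in whole organoids and in sorted intestinal stem cells (ISCs). Adult mice in all 6 groups received 2 doses of 1 mg tamoxifen, and 13 libraries were made.

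Organoids grown from ileal crypts formed 3 groups of 2 libraries, given as day 10. Sec-Cre organoids were Atoh1CreERT2;Apcfl/fl;Rosa26tdTomato, so that Cre was driven from the secretory lineage gene Atoh1. ISC-Cre organoids were Lgr5eGFP-CreERT2;Apcfl/fl;Rosa26tdTomato, with Cre in Lgr5+ stem cells. The third group was labelled WT, with no alleles listed. Sorted cells formed the other 3 groups. Sec-Cre ISCs (2 libraries, ileum, day 21 after induction) were Atoh1CreERT2;Apcfl/fl;Lgr5DTR-GFP;Rosa26tdTomato. WT ISCs (2 libraries, ileum, day 21) were Apcfl/fl;Lgr5DTR-GFP;Rosa26tdTomato, so the controls also carried floxed Apc but no Cre. ISC-Cre ISCs (3 libraries, duodenum, day 14) were Lgr5eGFP-CreERT2;Apcfl/fl;Rosa26tdTomato. No duodenal WT group was analysed here, so for the duodenal cells genotype, region, day, dissociation enzyme and the strand bias of the libraries cannot be told apart.

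Chemokines are small secreted proteins that guide leukocytes through G protein-coupled receptors. In the small intestine CCL25 draws CCR9+ lymphocytes, CCL28 draws CCR10+ plasma cells, and CCL20 draws CCR6+ cells to the epithelium over lymphoid follicles. CXCL16 and CX3CL1 are made as membrane-bound proteins and released by the proteases ADAM10 and ADAM17. CXCL1 and CXCL5 are ELR+ chemokines that attract neutrophils through CXCR2, and Cxcl1 and Ccl20 are textbook targets of NF-kB.

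Reads assigned to genes ran from 13631423 to 22182702 per organoid library and from 11524335 to 45516228 per ISC library. Levels below are read counts scaled to a fixed library total (CPM) after TMM scaling over all 13 libraries, a correction for libraries taken up by a few abundant genes. The TMM factor was 0.352 in Sec-Cre ISC replicate 1, 0.876 in replicate 2 and 0.980 to 1.25 elsewhere. The CPM of replicate 1 were raised most by it and are not shares of its reads. The Wnt target Axin2 was at 222 and 393 CPM in WT organoids against 782 to 822 in both Apc-null organoid groups, and at 285 and 330 in WT ISCs against 679 to 770 in ISC-Cre ISCs. The libraries labelled Sec-Cre ISC went the other way: Axin2 was at 79.0 and 37.8 CPM, below WT ISCs (log2 fold change -2.40 ± 0.41 SE, edgeR adjusted p = 0.00785). Apc itself was counted over the whole gene in every library (48.2 to 453 CPM), which does not check the deletion of an exon. Those Sec-Cre ISC libraries also stood apart in unmapped reads (57.0% and 35.8%, against 2.58% to 13.9% elsewhere), and in replicate 1 the 8 Paneth cell markers counted summed to 527765 CPM, against 9689 in replicate 2 and 13913 and 16630 in WT ISCs. Epcam, the epithelial surface protein, was at 952 to 2978 CPM in all libraries.

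The promoter stretches printed here are those of the members that moved together and of those that hold an NF-kB motif, and are the 140 bases from 150 to 11 before the annotated start, 5′ to 3′ on the gene's strand, from RefSeq (GRCm38.p6). Capitals mark the NF-kB consensus or a TATAAA box. The stretches lie at chr5:90891095-90891234 (Cxcl1, plus strand), chr1:83116616-83116755 (Ccl20, plus strand), chr11:83578647-83578786 (Ccl9, minus strand), chr11:83593098-83593237 (Ccl6, minus strand), chr8:4349438-4349577 (Ccl25, plus strand, the second of 2 annotated starts) and chr13:119623669-119623808 (Ccl28, plus strand).
Cxcl1: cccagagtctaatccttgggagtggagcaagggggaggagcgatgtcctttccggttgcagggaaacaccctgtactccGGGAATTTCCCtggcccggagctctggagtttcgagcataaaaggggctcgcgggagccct
Ccl20: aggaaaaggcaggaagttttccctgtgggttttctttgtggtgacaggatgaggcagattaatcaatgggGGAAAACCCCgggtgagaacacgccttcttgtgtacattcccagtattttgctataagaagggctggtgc
Ccl9: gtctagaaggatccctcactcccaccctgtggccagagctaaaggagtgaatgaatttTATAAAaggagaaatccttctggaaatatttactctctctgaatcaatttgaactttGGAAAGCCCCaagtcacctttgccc
Ccl6: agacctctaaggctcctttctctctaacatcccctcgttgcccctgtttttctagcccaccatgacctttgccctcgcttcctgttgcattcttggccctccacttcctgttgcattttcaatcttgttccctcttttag
Ccl25: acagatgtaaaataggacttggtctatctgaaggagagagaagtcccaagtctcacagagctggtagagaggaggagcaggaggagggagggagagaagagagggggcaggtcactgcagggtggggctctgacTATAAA
Ccl28: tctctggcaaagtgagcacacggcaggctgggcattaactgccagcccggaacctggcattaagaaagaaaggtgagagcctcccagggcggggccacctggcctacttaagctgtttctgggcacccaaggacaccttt

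Windows of 300 bases, from 250 before to 50 after a start, were given for 7 of the 10 members and numbered 8, with Ccl5, Cxcl16 and Cxcl5 not matched. The NF-kB consensus, searched on both strands, was found in the windows of Cxcl1, Ccl20 and Ccl9, and 8.46% of all 32851 windows hold it. In Cxcl1 it lay 71 to 61 bases before the start as 2 overlapping matches on opposite strands, in Ccl20 at 80 to 71 and in Ccl9 at 35 to 26. The TCF/LEF motif CTTTGAT, the binding letters of the Wnt pathway's transcription factors, was in none of the members' windows on either strand, and 3.73% of all windows hold it. TATAAA on the gene's strand was in the windows of Ccl9, Cx3cl1 and the second Ccl25 start, and in 8.32% of all windows. These are matches of letters and do not show binding.

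In organoids, Apc loss by either driver went with lower Ccl25, Ccl28 and Ccl6 and with higher Cxcl16, Cxcl1 and Cxcl5. Ccl9 was called lower only with Sec-Cre and Cx3cl1 only with ISC-Cre. Of the 9 members tested in Sec-Cre against WT organoids, 4 were lower and 3 higher, beside 33% of all 14208 genes called in either direction (16.3% lower and 16.7% higher). In ISC-Cre against WT organoids the count was also 4 lower and 3 higher of 9, beside 37.8% of all genes (18.5% lower and 19.3% higher). Cxcl1 and Cxcl5, 2 of the 3 higher members, passed the filter on low counts only through Apc-null libraries, so their direction was set by that filter. The median log2 fold change of the tested members was -0.22 and -0.53, against 0.05 and 0.03 over all genes. Both comparisons use the same 2 WT libraries, so their values are given side by side and are not independent of each other. A member was called where edgeR's quasi-likelihood test gave an adjusted p (Benjamini-Hochberg over all genes) under 0.05.

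**Figure D1:**
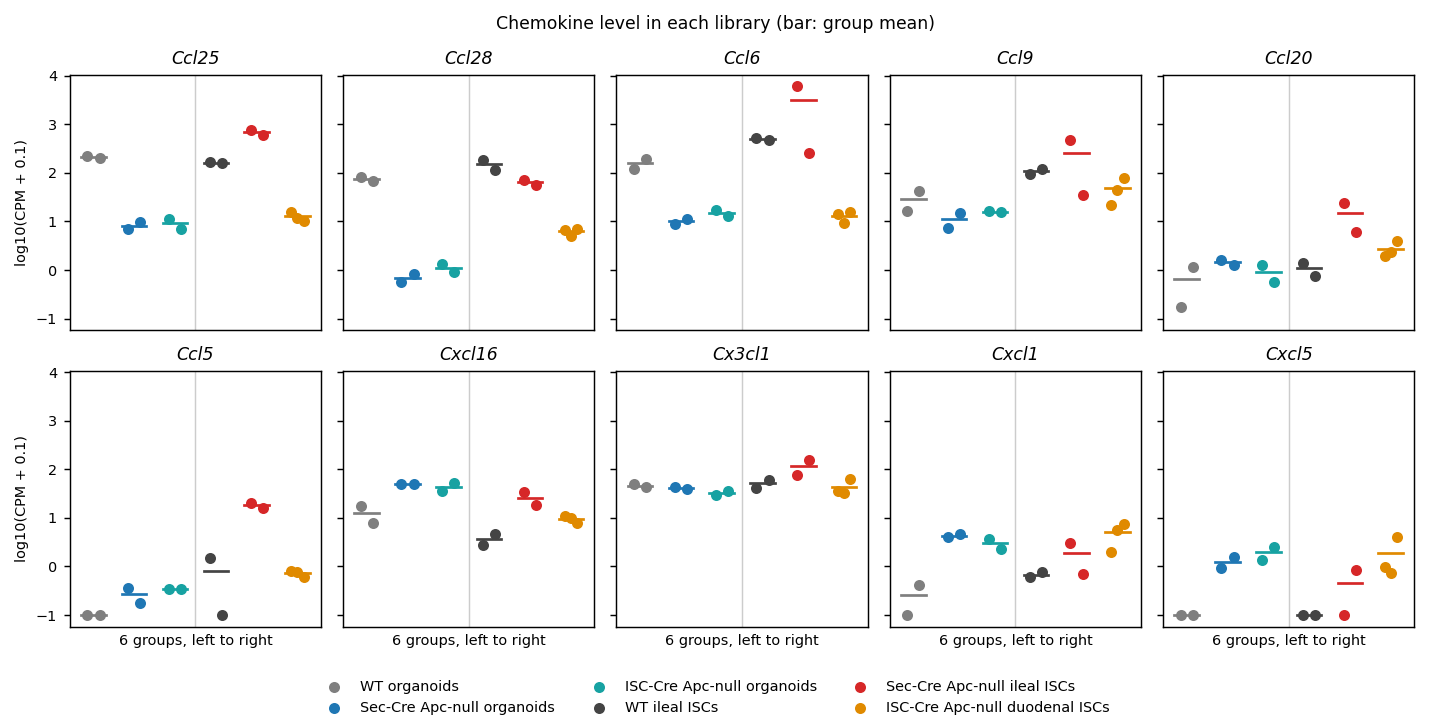
Level of each chemokine in the 13 libraries, as log10(CPM + 0.1), with 1 point per library, a bar at the group mean and a grey line between organoids (left) and sorted ISCs (right). Ccl25, Ccl28 and Ccl6 sit lower in both Apc-null organoid groups than in WT organoids without overlap, while Ccl25 is highest in the Sec-Cre ISC libraries (602 and 775 CPM).

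Ccl25 (chromosome 8, 4325210 to 4360020, plus strand), the ligand of CCR9, had 223 and 200.02 CPM in WT organoids. It was at 6.75 and 9.51 CPM in Sec-Cre organoids and at 11.2 and 6.99 in ISC-Cre organoids. No Apc-null library came near a WT library. The fold change was 26.9 times lower with Sec-Cre (log2 -4.75 ± 0.28 SE, edgeR adjusted p = 5.45e-05) and 23.6 times lower with ISC-Cre (-4.56 ± 0.28, adjusted p = 5.64e-05). In exons, 204 of its bases overlap those of Elavl1, which was at 106 to 142 CPM in organoids, so that reads there cannot be assigned without strand.

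Ccl28 (chromosome 13, 119623819 to 119654359, plus strand), the mucosal ligand of CCR10, showed the deepest fall of the members. WT organoids had 83.1 and 69.2 CPM, against 0.464 and 0.71 in Sec-Cre organoids and 1.24 and 0.809 in ISC-Cre organoids. The groups were far apart, with 29 and 48 reads in all in the Apc-null groups against 2739 in WT. It was 133 times lower with Sec-Cre (log2 -7.05 ± 0.32, edgeR adjusted p = 2.76e-05) and 74.8 times lower with ISC-Cre (-6.23 ± 0.30, adjusted p = 2.72e-05).

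Ccl6 and Ccl9 are neighbouring C-C chemokines of rodents that act through CCR1, on the minus strand of chromosome 11 (83587882 to 83593087 and 83572919 to 83578636). Ccl6 was at 120 and 193 CPM in WT organoids, at 8.86 and 10.9 in Sec-Cre organoids and at 17.03 and 13.1 in ISC-Cre organoids. It was thus lower in all 4 Apc-null libraries (log2 -4.03 ± 0.28, edgeR adjusted p = 1.01e-04, and -3.40 ± 0.27, adjusted p = 1.43e-04). Ccl9 was at 16.5 and 41.8 CPM in WT organoids, at 7.30 and 14.9 in Sec-Cre and at 16.2 and 15.3 in ISC-Cre organoids. The WT libraries differed more from each other than the lower one did from the Apc-null libraries. Ccl9 passed only just with Sec-Cre (-1.45 ± 0.47, adjusted p = 0.0499), and 7 of 14 other settings took the call away, with a value of -0.63 and an adjusted p of 0.256 without WT replicate 2. With ISC-Cre it did not pass (-0.92 ± 0.46, adjusted p = 0.159), but did without WT replicate 1 (-1.43, adjusted p = 0.0258). Ccl6 exceeded Ccl9 by 15.1 and 9.65 times per kilobase of transcript in WT organoids and by 1.53 to 2.53 times in Apc-null organoids.

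Markers of several differentiated epithelial cells were lower in the same organoids. Of 8 enterocyte markers 8 were lower in each Apc-null organoid group, and of 7 goblet cell markers 6 were lower in each. The goblet cell markers summed to 4567 and 4893 CPM in WT organoids and to 477 to 718 in Apc-null organoids. Of 7 enteroendocrine markers 7 were lower with Sec-Cre and 6 with ISC-Cre. Of 7 Paneth cell markers tested, 5 were lower and 1 higher with Sec-Cre, and 1 lower and 1 higher with ISC-Cre. With ISC-Cre their sum of 4392 and 6290 CPM overlapped the 4846 and 6318 of WT organoids. Single markers went both ways there. Lyz1 was at 3334 and 2439 CPM against 2136 and 2290 in WT organoids, and Itln1 at 976 and 702 against 1229 and 2447. The part of these cells in the fall of Ccl25, Ccl28 and Ccl6 was not tested, and in whole organoids fewer cells of a type and less RNA per cell cannot be told apart.

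The neutrophil chemokines were near nothing in WT organoids. Cxcl1 and Cxcl5 passed the filter on low counts only through Apc-null libraries, which set their direction. Cxcl1 (chromosome 5, 90891241 to 90893115, plus strand) was at 0 and 0.311 CPM in WT organoids, at 3.88 and 4.50 in Sec-Cre and at 3.56 and 2.19 in ISC-Cre organoids. Every Apc-null library was above both WT libraries (log2 4.46 ± 0.89, edgeR adjusted p = 0.00816, and 3.95 ± 0.89, adjusted p = 0.0115). Without ISC-Cre replicate 1 the second call was lost (adjusted p = 0.069). Cxcl5 (chromosome 5, 90759360 to 90761624, plus strand) had no read in WT organoids, 57 in Sec-Cre (0.844 and 1.46 CPM) and 84 in ISC-Cre organoids (1.28 and 2.47 CPM). Set against 3 counts over the WT group, it was at least 14.2-fold higher with Sec-Cre (edgeR adjusted p = 0.00872) and at least 22.3-fold higher with ISC-Cre (adjusted p = 0.00476). Without WT replicate 2, which held all 7 WT reads of Cxcl1, its fitted values of 9.51 and 8.98 rest on 1 WT library with no read. These are low levels: the highest value in an organoid library was 4.50 CPM for Cxcl1 and 2.47 CPM for Cxcl5.

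Immune cell markers also differed in these organoids. Of 6 tested, 4 were higher and 1 lower in each Apc-null group, beside 33% (Sec-Cre) and 37.8% (ISC-Cre) of all genes called. Laptm5 and S100a9 passed the filter on low counts only through Apc-null libraries and Ptprc only through WT libraries, which set their direction. The 22 counted summed to 38.0 to 50.3 CPM in Apc-null organoids against 17.5 and 21.2 in WT, with 15 at 0 in WT. Most of that sum was Cd14, a co-receptor of bacterial lipopolysaccharide known from monocytes, at 29.1 to 41.5 against 10.1 and 7.91 CPM. The leukocyte gene Ptprc was at 0.316 CPM or less in Apc-null organoids against 0.563 and 1.07 in WT, and the integrin gene Itgam at 1.18 to 2.00 against 8.79 and 5.55. The neutrophil gene S100a9 was at 0.32 to 0.506 CPM against 0. The part of immune cells in the rise of Cxcl1 and Cxcl5 was not tested.

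Cxcl16 (chromosome 11, 70453983 to 70459984, minus strand), the membrane-bound ligand of CXCR6, was at 17.6 and 7.60 CPM in WT organoids. It reached 49.8 and 49.4 CPM in Sec-Cre and 35.2 and 51.4 in ISC-Cre organoids. All 4 Apc-null libraries were above both WT libraries, 3.83 times higher with Sec-Cre (log2 1.94 ± 0.38, edgeR adjusted p = 0.00728) and 3.37 times with ISC-Cre (1.75 ± 0.38, adjusted p = 0.00939). Without ISC-Cre replicate 2 the adjusted p of the second was 0.067. Of its exon bases 552 overlap Zmynd15 on the other strand, a gene at 0.533 and 0.773 CPM in WT and 3.68 to 5.71 CPM in Apc-null organoids.

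Cx3cl1 (chromosome 8, 94772009 to 94782427, plus strand), the membrane-bound ligand of CX3CR1, was the steadiest member. It was at 48.7 and 42.7 CPM in WT, 42.8 and 38.5 in Sec-Cre and 29.5 and 35.3 in ISC-Cre organoids. The Sec-Cre and WT values overlapped (log2 -0.22 ± 0.16, edgeR adjusted p = 0.340). The ISC-Cre values lay below both WT values (-0.53 ± 0.17, adjusted p = 0.0390), a call that 10 of 14 other settings took away, with adjusted p up to 0.419.

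Ccl20 (chromosome 1, 83116766 to 83119167, plus strand), the ligand of CCR6, stayed at 0.0703 to 1.52 CPM in the organoid libraries. Its values of 0.0703 and 1.07 CPM in WT, 1.52 and 1.14 in Sec-Cre and 1.16 and 0.476 in ISC-Cre organoids did not pass (edgeR adjusted p = 0.443 and 0.772), with a wide gap in the WT pair. Without WT replicate 2 the fitted value with Sec-Cre went from 1.10 to 4.09 and passed (adjusted p = 0.0494). Ccl5 (chromosome 11, 83525778 to 83530518, minus strand), a chemokine best known from T cells, had no read in WT organoids, 8 in Sec-Cre and 11 in ISC-Cre organoids, and did not pass the filter on low counts.

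**Figure D2:**
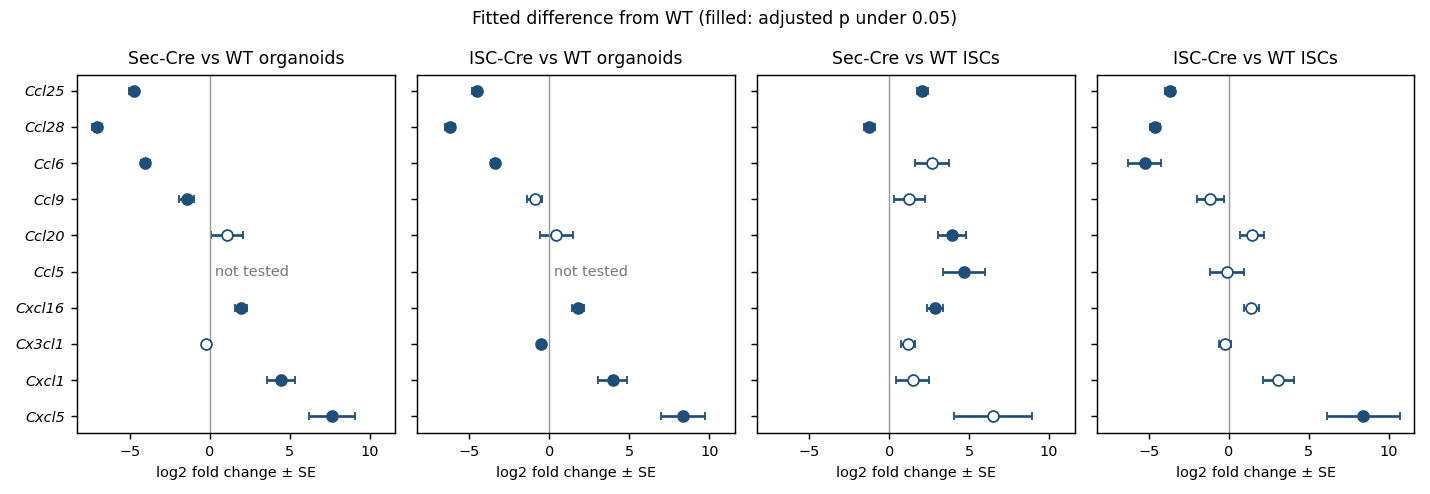
Fitted log2 fold change of each member against WT, with bars of 1 SE, in Sec-Cre and ISC-Cre organoids and ISCs, filled where the adjusted p was under 0.05. Both organoid panels show the same calls except Ccl9 and Cx3cl1, and Ccl25 lies right of 0 only in Sec-Cre ISCs (2.08) among these 4 comparisons. Values of Cxcl5 depend on the WT groups having no read.

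Sec-Cre and ISC-Cre organoids, compared directly, differed in none of the 9 members tested, beside 0.0422% of all genes called. Of the 9, 1 had an unadjusted edgeR p under 0.05, Ccl6 (log2 -0.63 ± 0.26, adjusted p = 0.984), and DESeq2 also called 0. The fitted differences ran from -0.83 ± 0.35 SE (Ccl28) to 0.67 ± 0.98 SE (Ccl20), and with 2 libraries per group this does not show that the drivers act alike.

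The make-up of chemokine RNA changed with these shifts. Per kilobase of the principal transcript, the 10 members summed to 343 and 373 CPM in WT organoids and to 53.5 to 58.9 in Apc-null organoids. In WT organoids Ccl25 made up 61.4% and 50.7% of that sum and Cxcl16 1.91% and 0.755%. In Apc-null organoids Ccl25 made up 11.9% to 18.8% and Cxcl16, the leading member by group mean, 23.0% to 34.5%. In order of group means per kilobase, WT organoids ran from Ccl25 (199.8 CPM per kilobase) and Ccl6 (109) to Ccl28 (20.4), Cx3cl1 (13.8) and Ccl9 (9.70), and Sec-Cre organoids from Cxcl16 (18.4) and Cx3cl1 (12.3) to Ccl25 (7.68), Ccl6 (6.87) and Cxcl1 (4.396).

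**Figure D3:**
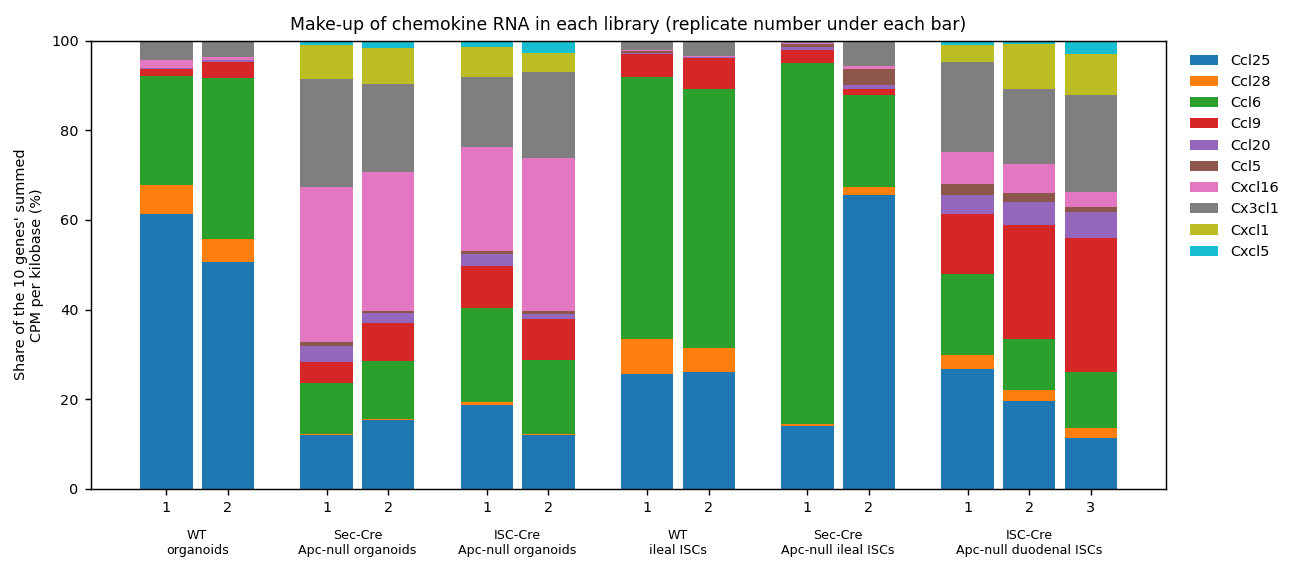
Share of each member in the summed CPM per kilobase of the 10 chemokines, 1 bar per library with its replicate number. Ccl25 and Ccl6 fill most of the bar in WT organoids, WT ISCs and Sec-Cre ISCs, and Cxcl16 takes 23.0% to 34.5% in Apc-null organoids; Sec-Cre ISC replicate 1 is 80.6% Ccl6 and replicate 2 is 65.5% Ccl25.

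In sorted ileal ISCs the libraries labelled Sec-Cre showed another pattern: Ccl25, Ccl5, Ccl20 and Cxcl16 were higher and Ccl28 was lower than in WT ISCs. That is 5 of 10 members called, beside 16.6% of all 14577 genes (9.62% higher and 6.96% lower). The median log2 fold change of the members was 2.37, against 0 over all genes. The count fell to 0 or 1 when a WT library was left out, to 1 with library totals in place of TMM scaling and to 2 in a fit of the 4 libraries alone. Leaving out either Sec-Cre library leaves 1 in that group and changed which members were called. Of the 5, only Ccl25 and Cxcl16 kept their calls in both settings. The fitted value of Ccl6 was -0.98 without replicate 1 and 3.60 without replicate 2.

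Ccl25 was at 171 and 156 CPM in WT ISCs and at 775 and 602 in Sec-Cre ISC replicates 1 and 2. Without TMM scaling these levels were 177 and 165 against 273 and 527 CPM, so the order of the Sec-Cre replicates depends on that scaling. The fitted difference was 4.22 times higher without overlap (log2 2.08 ± 0.32, edgeR adjusted p = 0.00606). Under library totals alone the value was 1.23 (adjusted p = 0.152), and without a WT replicate the adjusted p was 0.0718 and 0.0863. Ccl28 was at 187 and 114 CPM in WT ISCs and at 70.9 and 57.2 in Sec-Cre ISCs, again without overlap (-1.23 ± 0.33, adjusted p = 0.0371). The Ccl28 call was lost in 7 of 16 other settings, with adjusted p from 0.0573 to 0.266, the highest without WT replicate 1 (-0.84).

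Cxcl16 was at 2.60 and 4.46 CPM in WT ISCs and at 33.5 and 18.6 in Sec-Cre ISCs (log2 2.87 ± 0.51, edgeR adjusted p = 0.00953). Ccl20 was at 1.30 and 0.658 CPM in WT ISCs and at 23.9 and 5.85 in Sec-Cre ISCs (3.91 ± 0.89, adjusted p = 0.0222). In both genes the lower Sec-Cre library was above both WT libraries. Of 16 other settings 3 took the call of Cxcl16 away, with adjusted p up to 0.0973, and 5 that of Ccl20, with adjusted p up to 0.144; without Sec-Cre replicate 1 Ccl20 was at 2.56 (adjusted p = 0.0598). All of these settings kept the direction. Cx3cl1 was at 41.8 and 60.6 CPM in WT and at 75.6 and 156 in Sec-Cre ISCs and did not pass (1.18 ± 0.45, adjusted p = 0.103), but did without Sec-Cre replicate 1 (1.58, adjusted p = 0.0456) and in the fit of all 13 libraries (adjusted p = 0.0348).

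Ccl6 and Ccl9 were set by 1 library. Ccl6 was at 532 and 471 CPM in WT ISCs and at 6087 and 259 in Sec-Cre ISC replicates 1 and 2, and Ccl9 at 96.4 and 117 against 479 and 34.5. For both genes replicate 1 was above both WT libraries and replicate 2 below both. Neither passed (log2 2.67 ± 1.08, edgeR adjusted p = 0.122, and 1.27 ± 0.97, adjusted p = 0.393), and without replicate 1 the signs turned (-0.98, adjusted p = 0.0989, and -1.66, adjusted p = 0.133). Without replicate 2 both passed as higher (3.60, adjusted p = 0.00278, and 2.17, adjusted p = 0.0435), and Ccl6 also passed in the fit of all 13 libraries (adjusted p = 0.0465). Ccl9 also turned under library totals alone (-0.17, adjusted p = 0.906). Replicate 1 is also the library with 527765 CPM of Paneth cell markers. Goblet cell markers summed to 35192 and 5470 CPM in Sec-Cre ISC replicates 1 and 2, also above and below the 13900 and 15821 of WT ISCs. The part of Paneth and goblet cells was not tested. The 8 enterocyte markers summed to 45290 and 23099 CPM in the Sec-Cre ISC libraries against 1325 and 1340 in WT ISCs. The part of enterocytes in the levels of the members was not tested either.

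Ccl5 rose with genes of lymphocytes. It was at 1.42 and 0 CPM in WT ISCs and at 19.7 and 16.2 in Sec-Cre ISCs (log2 4.68 ± 1.29, edgeR adjusted p = 0.0403), a call lost in 9 of 16 other settings with adjusted p up to 0.104. Without WT replicate 1 the fitted value of 11.8 rests on 1 WT library with no read. Gzma, a granzyme of cytotoxic lymphocytes, was at 18.0 and 24.8 CPM in the same Sec-Cre libraries and at 0.805 and 0 in WT ISCs. Cd3e, a subunit of the T cell receptor complex, was at 3.20 and 2.99 against 0.0619 and 0, and Ptprc, the leukocyte surface protein CD45, at 7.88 and 21.7 against 3.41 and 9.77. Of 17 immune markers tested 4 were higher and 1 lower, beside 16.6% of all genes called. Cd3e, Nkg7 and S100a8 passed the filter on low counts only through libraries of the Cre groups, and Itgax and Ms4a1 only through WT libraries. The 22 counted summed to 96.8 and 153 CPM in Sec-Cre against 93.5 and 108 in WT ISCs, with 1 and 3 of them at 0 in the group. In WT ISC replicate 2, where Ccl5 had no read, Gzma, Gzmb and Cd3e had none either. In organoids Gzma had at most 0.0476 CPM and Ccl5 at most 0.253. The part of lymphocytes in the sorted samples was not tested.

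**Figure D4:**
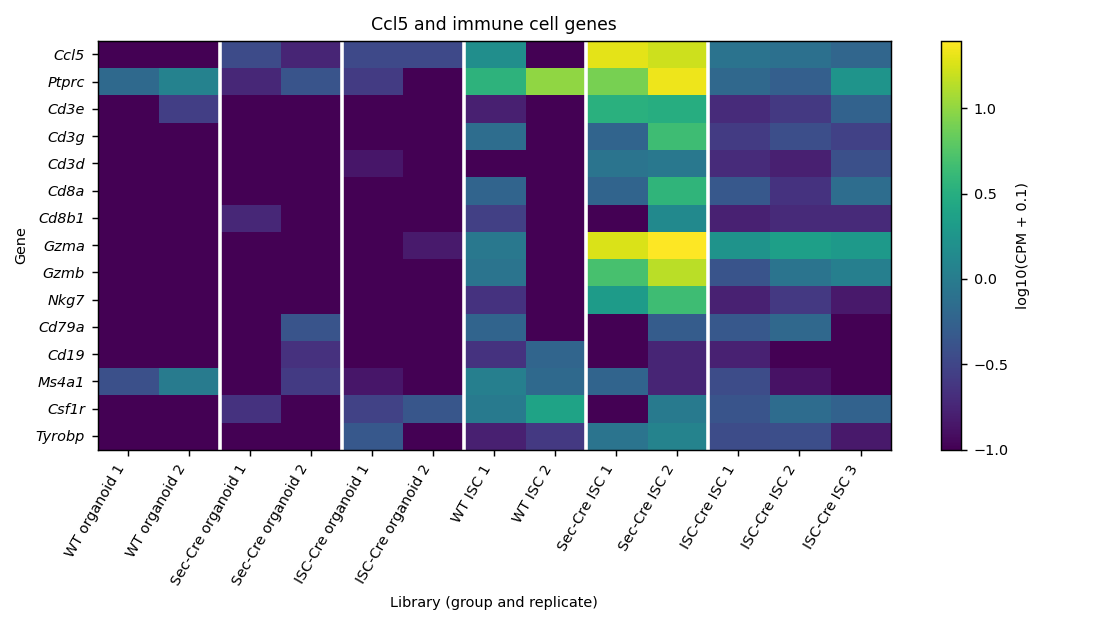
Heat map of Ccl5 and 14 immune cell genes (rows) in the 13 libraries (columns), coloured by log10(CPM + 0.1). Ccl5, Gzma, Gzmb, Nkg7 and Cd3e are highest in the 2 Sec-Cre ISC libraries, where Ccl5 is at 19.7 and 16.2 CPM, and dark in organoids.

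Cxcl1 and Cxcl5 stayed low in these cells. Cxcl1 was at 0.495 and 0.658 CPM in WT and 2.95 and 0.602 in Sec-Cre ISCs (edgeR adjusted p = 0.354). Cxcl5 had no read in WT ISCs and 29 reads in Sec-Cre ISCs, all in replicate 2 (adjusted p = 0.106).

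In duodenal ISC-Cre ISCs Ccl25, Ccl28 and Ccl6 were lower and Cxcl5 was higher than in ileal WT ISCs. That is 4 of 10 members called, 3 lower and 1 higher, beside 19.1% of all genes (8.84% lower and 10.2% higher). Region, day, enzyme and strand bias differ between these groups together with genotype. Of 7 goblet cell markers 5 were lower in the duodenal cells, with sums of 715 to 1196 CPM against 13900 and 15821 in WT ISCs, and of 7 enteroendocrine markers 7 were lower, with sums of 24.8 to 36.6 against 595 and 792 CPM. Of 8 enterocyte markers 2 were higher and 1 lower, and of 8 Paneth cell markers none was called. The part of these cells in the lower chemokine levels was not tested.

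Ccl25 was at 15.4, 11.9 and 10.4 CPM in ISC-Cre ISCs, 12.96 times below the 171 and 156 CPM of WT ISCs (log2 -3.70 ± 0.30, edgeR adjusted p = 3.75e-04). Ccl28 was at 6.45, 5.03 and 7.04 CPM, 24.3 times below WT ISCs (-4.60 ± 0.32, adjusted p = 2.40e-04). Ccl6 was at 14.3, 9.37 and 15.5 CPM (-5.27 ± 1.03, adjusted p = 0.00977). For these 3 genes no duodenal library overlapped a WT library, and the calls held in all 16 other settings run.

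Cxcl5 had 132 reads in the duodenal libraries (0.871, 0.641 and 3.97 CPM) and none in WT ISCs, at least 18.6-fold higher (edgeR adjusted p = 0.0402), and passed the filter only through libraries of the Cre groups. That call was lost without any 1 of the 5 libraries of the comparison, with adjusted p from 0.0674 to 0.169. Cxcl1 was at 1.90, 5.49 and 7.52 CPM, above both WT libraries, and fell just short of the threshold (log2 3.08 ± 0.98, adjusted p = 0.0585). Cxcl16 was at 10.6, 9.76 and 7.89 CPM, also above both WT libraries (1.41 ± 0.46, adjusted p = 0.0648). Each of the 2 passed in 7 of 16 other settings, Cxcl16 among them when only second-strand reads were counted for the duodenal libraries (adjusted p = 0.0386). The neutrophil granule genes S100a8 and S100a9 were at 3.07 and 2.36 CPM in duodenal replicate 3, where Cxcl1 and Cxcl5 were highest. In replicates 1 and 2 they were at 0.0305 to 0.0968 CPM. The integrin gene Itgam went the other way, at 1.00, 0.732 and 0.142 CPM in replicates 1, 2 and 3. The part of immune cells was not tested.

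The other members did not pass. Ccl9 was at 21.9, 44.1 and 78.0 CPM, below both WT libraries (edgeR adjusted p = 0.380), and passed with library quality weights (log2 -1.91, adjusted p = 0.00405). Ccl20 was at 1.81, 2.26 and 3.92 CPM, above both (adjusted p = 0.227), and Cx3cl1 at 36.3, 31.9 and 61.7 CPM overlapped them (adjusted p = 0.706). Ccl5 was at 0.71, 0.671 and 0.52 CPM, between the 2 WT values.

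Set against the ileal Sec-Cre ISC libraries, 7 of 10 members were lower in duodenal ISC-Cre ISCs and none was higher, beside 40.8% of all genes called (19.8% lower and 21% higher). Ccl6 had the largest fitted difference (log2 -7.94 ± 1.15, edgeR adjusted p = 0.00124), a value that rests on Sec-Cre replicate 1: without that library it was -4.29 (adjusted p = 3.50e-04), smaller in size than Ccl25 (-5.55) and Ccl5 (-4.63). With all libraries Ccl25 differed by -5.77 ± 0.32 (adjusted p = 1.25e-04), Ccl5 by -4.80 ± 1.08 (adjusted p = 0.00884) and Ccl28 by -3.37 ± 0.31 (adjusted p = 2.01e-04). The calls of Ccl20, Cxcl16 and Cx3cl1 (adjusted p = 0.0245, 0.0261 and 0.0212) were each lost under library totals alone, those of Ccl20 and Cxcl16 also without Sec-Cre replicate 1 (-1.11 and -0.95) and that of Cx3cl1 without Sec-Cre replicate 2 (-0.80). Ccl9 passed as lower in 4 settings, among them without Sec-Cre replicate 2 (-3.32), and turned to 0.50 without replicate 1. Without ISC-Cre replicate 1 or 2 the count was 4. Markers lower in the same comparison were 8 of 8 enterocyte, 7 of 7 enteroendocrine, 6 of 7 goblet cell, 4 of 8 Paneth cell and 7 of 17 immune markers tested, and their part was not tested. Driver, region, day and enzyme differ together here.

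Whole WT organoids and sorted WT ISCs were also compared. Between WT organoids and WT ISCs only Cxcl16 was called, higher in organoids (log2 1.83 ± 0.45, edgeR adjusted p = 0.0451), which is 1 of 10 members beside 3.87% of all genes (1.98% higher and 1.89% lower). That call was lost in 8 of 12 other settings, with a value of 1.10 (adjusted p = 0.395) without WT organoid replicate 1. A p above the threshold does not show equal levels: Ccl28 was at 83.1 and 69.2 CPM in organoids against 187 and 114 in ISCs (-0.98 ± 0.30, adjusted p = 0.107), and passed with DESeq2 (adjusted p = 0.0457) and with library quality weights (adjusted p = 0.019).

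The difference between libraries labelled Sec-Cre and WT was then compared between organoids and ISCs in a fit of all libraries. The ISC side rests on the label of 2 libraries whose Axin2 level went against Apc loss (79.0 and 37.8 CPM against 330 and 285 in WT ISCs), so it is a difference between labelled groups. It was not the same in both materials for 3 of 10 members, all lower in organoids, beside 26.4% of all genes (13% lower and 13.4% higher). The organoid difference minus the ISC difference was -6.78 ± 0.44 SE on the log2 scale for Ccl25 (edgeR adjusted p = 3.09e-06), -5.76 ± 0.49 for Ccl28 (adjusted p = 1.60e-05) and -6.64 ± 1.33 for Ccl6 (adjusted p = 0.00360), which was -3.05 without Sec-Cre ISC replicate 1. Ccl25 fell in organoids and was higher in the ISC libraries, whereas Ccl28 fell in both and by more in organoids. Cxcl16 was higher in both materials, and its difference did not pass (-0.88 ± 0.62, adjusted p = 0.327).

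The receptors of the members were nearly silent in these epithelial samples. The 9 receptor genes summed to 0.141 to 0.8 CPM in organoids, where none passed the filter on low counts, and to 0.743 to 4.17 CPM in ISCs. Ccr9, the receptor of CCL25, was called in Sec-Cre against WT ISCs, with 71 reads (1.23 and 1.66 CPM) against 2, a ratio of 29.0 with a 95% exact counting interval of 7.74 to 244 (edgeR adjusted p = 0.0493). That is 1 of 4 receptors tested, beside 16.6% of all genes called. Ccr9 passed the filter only through libraries of the Cre groups, which set its direction. Ccr9 is carried by gut lymphocytes. Of the genes given beside Ccl5, Gzma and Cd3e were above WT ISCs in both Sec-Cre libraries, while Ptprc overlapped WT ISCs. The part of lymphocytes in the Ccr9 reads was not tested. The sheddase genes were abundant, with Adam10 at 72.9 to 388 and Adam17 at 22.2 to 72.6 CPM over all libraries. Adam10 rose slightly in ISC-Cre organoids (log2 0.48 ± 0.15, adjusted p = 0.0393).

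Of 28 other chemokine ligands, 6 were tested in organoids and 3 were called in both Apc-null groups, beside 33% and 37.8% of all genes. The 3 passed the filter on low counts only through Apc-null libraries, which set their direction. They were Cxcl14, a chemokine of epithelia, Ccl2, which attracts monocytes through CCR2, and Cxcl2, a close relative of Cxcl1. None had a read in WT organoids. Cxcl14 was at 8.78 and 3.20 CPM in Sec-Cre and 9.75 and 13.1 in ISC-Cre organoids, at least 72.1-fold and 138-fold higher (edgeR adjusted p = 0.00164 and 8.56e-04). Ccl2 was at least 58.4-fold and 49.5-fold higher (adjusted p = 0.00191 and 0.00177) and Cxcl2 at least 31.7-fold and 26.6-fold (adjusted p = 0.00282 and 0.00274). Of 14 other chemokine receptors, 5 were tested, and Cxcr4, which also passed the filter only through Apc-null libraries, was higher and Ackr4 lower in both groups. Cxcr4, the receptor of CXCL12, had 313 and 227 reads against 3 in WT, ratios of 78.1 (95% exact counting interval 26.5 to 381) and 60.4 (20.4 to 295). Ackr4, a scavenger that also binds CCL25, fell by 2.44 and 2.24 on the log2 scale (adjusted p = 0.0323 and 0.0377). It passed the filter only through the WT libraries, which set its direction.

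Some stromal genes were higher in the same organoids. Of 7 stromal and endothelial markers tested, 3 were higher and 1 lower with Sec-Cre, beside 33% of all genes called. With ISC-Cre 4 were higher and 1 lower, beside 37.8%, and 5 of the 7 passed the filter only through Apc-null libraries. The 11 stromal and endothelial markers summed to 3.797 and 4.13 CPM in WT organoids, with 8 of them at 0, and to 10.8 to 33.9 CPM in Apc-null organoids. Most of that was Cdh5 (7.30 to 23.1 CPM), while Pecam1 and Kdr, the other endothelial markers listed, were at 0.355 CPM or less and the fibroblast genes Col1a1 and Dcn at 1.39 CPM or less. Acta2, an actin of smooth muscle and myofibroblasts, was at 8.56 CPM in ISC-Cre replicate 1 and at 0.631 to 0.856 in the other Apc-null libraries. Pdgfrb, a receptor of pericytes and fibroblasts that made up most of the WT sum, was lower, at 0.237 to 0.44 CPM against 3.66 and 3.29. In duodenal ISC-Cre ISCs the sum was 92.8 to 166 CPM, with Cdh5 at 63.4 to 140, against 4.71 and 7.34 in WT ISCs. The part of stromal cells in the rise of Cxcl1, Cxcl5, Cxcl14, Ccl2 and Cxcl2 was not tested.

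Genes upstream of inducible chemokines were counted in organoids from 2 lists. Of 19 NF-kB subunits, inhibitors and feedback genes, 4 were higher and 1 lower with Sec-Cre, beside 33% of all genes called, and 7 higher and 1 lower with ISC-Cre, beside 37.8%. Icam1, an adhesion molecule and NF-kB target, was at 0.844 and 0.889 CPM in WT and 13.4 to 20.1 CPM in Apc-null organoids (log2 4.21 ± 0.33 and 4.20 ± 0.33, edgeR adjusted p = 1.54e-04 and 1.32e-04). Rela, the p65 subunit, rose by 0.96 ± 0.13 and 1.04 ± 0.13, and Nfkbie, an inhibitor of NF-kB, by 2.07 ± 0.39 and 2.61 ± 0.39. Of 17 cytokine and microbial receptor genes tested, 5 were higher in each group, and 4 were lower with Sec-Cre and 5 with ISC-Cre, beside the same shares of all genes. Il1r1, the receptor of interleukin 1, which passed the filter only through Apc-null libraries, had no read in WT organoids and 369 and 399 in the Apc-null groups, at least 92.1-fold and 106-fold higher. Tlr2, a receptor of bacterial lipoproteins, rose by 1.79 ± 0.27 and 2.17 ± 0.27, and Ifngr1, a chain of the interferon gamma receptor, fell by 1.64 and 2.04.

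Of the 19 NF-kB genes in ISCs, 3 were higher and 1 lower in the Sec-Cre libraries, beside 16.6% of all genes, and 1 higher and 1 lower in ISC-Cre ISCs, beside 19.1%. In the Sec-Cre libraries Nfkbia, Nfkbib and Bcl3, inhibitors and a relative of theirs, were higher (log2 2.26 ± 0.38, 1.68 ± 0.30 and 1.32 ± 0.34), and no other chemokine ligand was called of 8 tested. Il18, a cytokine of the interleukin 1 family listed with the receptors, was at 126 and 69.9 CPM there against 4.64 and 3.19 in WT ISCs (4.65 ± 0.55, edgeR adjusted p = 0.00309), and Nod1, an intracellular sensor of bacterial peptidoglycan, was lower (-1.90 ± 0.43). In duodenal ISC-Cre ISCs Cxcl17, with no read in WT ISCs, was at 2.77, 2.47 and 4.16 CPM (at least 35.9-fold higher), Cxcl2 was higher (3.41 ± 0.97, adjusted p = 0.0409) and the interferon-induced Cxcl11 lower (-5.25 ± 1.44, adjusted p = 0.0367). Cxcl17 and Cxcl2 passed the filter only through libraries of the Cre groups. Icam1 was at 16.5, 25.4 and 59.2 CPM there against 1.98 and 2.13 (4.02 ± 0.78, adjusted p = 0.00936).

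**Figure D5:**
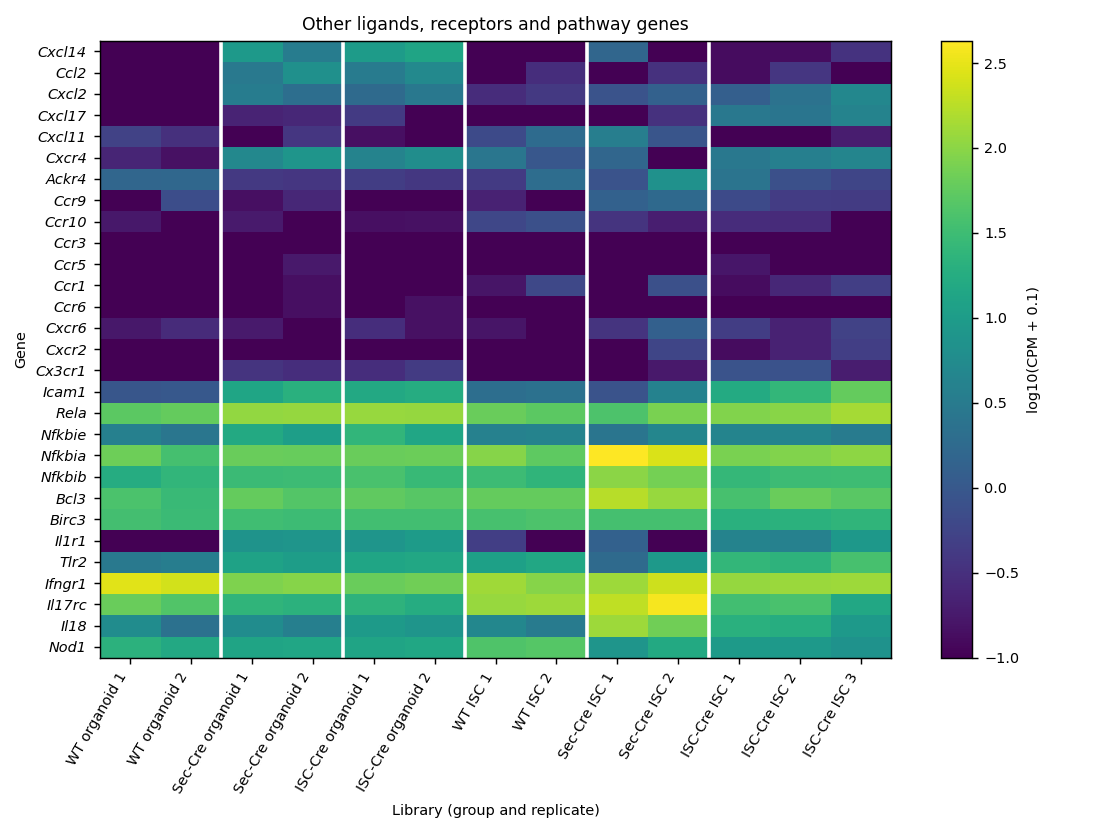
Heat map of other ligands, chemokine receptors, NF-kB genes and upstream receptors (rows) in the 13 libraries (columns), coloured by log10(CPM + 0.1). The rows of Cxcl14, Ccl2, Cxcl2, Cxcr4, Icam1 and Il1r1 are brighter in Apc-null than in WT organoids, where Icam1 is at 0.844 and 0.889 CPM, and the 9 receptors from Ccr9 to Cx3cr1 stay dark, at 1.66 CPM or less.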

How the data were processed

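Gene-level RNA sequencing read counts of 13 libraries in 6 groups were used as deposited, from the column for both strands together. Per the submitters' processing notes the names recorded, without their roles, are mm10, STAR with no version, and DESeq2 1.22.2, and the annotation behind the counts is not given in the sources used here. The kit was non-directional per the labels' protocols, although 98.5% to 98.9% of stranded reads in the duodenal libraries were on the second strand. The labels do not say that replicates were separate animals, so p-values measure the spread between libraries, which may be technical. Library replicates differed by more than sampling noise. The 4 summary lines of each table, which held 22.3% to 84.5% of reads, were left out.

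Counts were fitted with edgeR 4.0.16 (R 4.3.3, limma 3.58.1): filterByExpr with a minimum count of 10, TMM scaling, the quasi-likelihood test and Benjamini-Hochberg adjustment over all genes of a fit, called under 0.05. The 6 organoid libraries gave 14208 genes, the 7 ISC libraries 14577 and all 13 libraries 15208. Standard errors were derived from the fold change and the test statistic. The fits were tested on simulated data, where 4-fold changes in 200 genes were recovered for 93.5% of them in Sec-Cre against WT organoids (14208 genes) and for 29.5% in Sec-Cre against WT ISCs (14577 genes). The 200 genes were drawn only from genes above a minimum mean level. Cxcl1, Cxcl5 and Ccl20 did not reach it in organoids, so the share recovered there does not cover them. Folds against a group with no read are lower bounds set against 3 counts over the group, and intervals cover counting error only. Tables and figures were made with Python 3.11.15. Gene positions and transcript lengths came from GENCODE M21 (GRCm38) and promoters from RefSeq.

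The text names the 10 members, up to 3 called genes with the smallest adjusted p from each other list, the receptors and sheddases by level, and marker genes by summed level. Axin2, Apc, the overlapping genes and single lymphocyte, neutrophil and stromal markers were named after their values were seen. The members and lists were chosen with earlier results of these data known. Alternatives were DESeq2 1.42.0, RLE scaling, library totals alone, no filter, other sets of libraries in the fit, library quality weights, a replicate block, second-strand counts for the duodenal libraries, and leaving out each library.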

Additional observations from a re-analysis of the deposited data

Results flagged for a closer look

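The difference between libraries labelled Sec-Cre and WT was not the same in organoids and in sorted ileal ISCs for 3 members, by the test of the difference itself. For Ccl25 the organoid difference minus the ISC difference was -6.78 on the log2 scale (edgeR adjusted p = 3.09e-06): 6.75 and 9.51 against 223 and 200.02 CPM in organoids, but 775 and 602 against 171 and 156 CPM in ISCs. For Ccl28 it was -5.76 (adjusted p = 1.60e-05), with a fall in both materials. For Ccl6 it was -6.64 (adjusted p = 0.00360), and without Sec-Cre ISC replicate 1, which held 6087 CPM of Ccl6 against 259 in replicate 2, it was -3.05. Axin2 was lower in the libraries labelled Sec-Cre ISC than in WT ISCs, and their Paneth cell, goblet cell, enterocyte and lymphocyte genes stood apart. The part of these in the 3 differences was not tested.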

How the results depend on the processing

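Of 1091 alternative values for 74 member results, 953 kept direction and side of the threshold, 76 lost a call, 42 gained one and 20 changed sign. Ccl25, Ccl28 and Ccl6 kept their calls against WT in every alternative run for organoids and for duodenal ISCs, and in the difference between materials. The organoid counts against WT were 5 to 7 of 9 in every alternative. In Sec-Cre against WT ISCs the count of 5 became 1 with library totals alone, 2 with the compared groups alone and 0 to 5 with a library left out. In ISC-Cre against WT ISCs it rose from 4 to 7 with quality weights. In ISC-Cre against Sec-Cre ISCs it went from 7 to between 4 and 7 with a library left out. Between WT organoids and WT ISCs the count of 1 was 3 with DESeq2, 2 with the compared groups alone, 0 with RLE scaling or library totals and 0 to 1 with a library left out. The difference between materials gave 3 to 5 with a library left out. The cause was not tested.

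With a replicate block the counts were 7, 6 and 0 in organoids (Sec-Cre and ISC-Cre against WT, and against each other), 4, 3 and 5 in ISCs, 0 between the WT groups and 4 for the difference between materials. Same-numbered libraries did not deviate together (correlations from -0.08 to 0.12 over 13357 genes). With so few libraries per group this cannot exclude shared animals or batches.

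Library totals alone moved the median of all genes by -0.71 in Sec-Cre against WT ISCs, 0.86 in ISC-Cre against Sec-Cre ISCs, 0.84 in the difference between materials, and 0.17, 0.21 and 0.12 in Sec-Cre organoids, ISC-Cre organoids and ISC-Cre ISCs against WT. The share of calls that were higher went from 58.0% to 21.9%, 51.4% to 81.0%, 50.8% to 80.0%, 50.5% to 64.6%, 51.1% to 66.5% and 53.7% to 64.3%.

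Signs changed only in results not called at first. Under library totals Ccl9 in Sec-Cre against WT ISCs was -0.17, Ccl5 in ISC-Cre against WT ISCs 0.0152 and the Cxcl16 difference between materials 0.18. Ccl5 in ISC-Cre against WT ISCs was also 2.11 with quality weights, 0.54 with the replicate block and -1.13 to 7.0002 with a library left out, where the highest value, without WT replicate 1, passed (adjusted p = 0.0346). With a library left out, Ccl20 in ISC-Cre against WT organoids ran from -0.39 to 3.42, and in Sec-Cre against ISC-Cre organoids Ccl25 from -0.50 to 0.22 and Cxcl16 from -0.0449 to 0.46. In Sec-Cre against WT ISCs Ccl6 ran from -0.98 to 3.60 and Ccl9 from -1.66 to 2.17. Cx3cl1 in ISC-Cre against WT ISCs ran from -0.58 to 0.0673 and Ccl9 in ISC-Cre against Sec-Cre ISCs from -3.32 to 0.50. Between the WT groups Ccl20 ran from -3.69 to 0.13 and Cx3cl1 from -0.40 to 0.13, and the difference between materials from -3.65 to 0.22 for Ccl9 and from -3.57 to 0.26 for Ccl20. Ccl5 and Cxcl5 had no read in WT organoids and have no usable difference between materials. The ISC fits had the wider spread, and low counts of Cxcl5, Ccl5 and Cxcl1 limit their precision.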
